A study of Mus musculus with 4 samples.

Results

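Enzymes that break down threonine and glycine, and the folate enzymes that carry the resulting carbon units, were examined in whole mouse embryos lacking Ddx6. The 10 genes were chosen from a list of symbols because Tdh was low and Aldh1l1 was high in both Ddx6 KO libraries, so the KO values of these 2 genes are a description of how the set was picked. All 10 symbols were among the 24421 genes of the count table, and 9 of them reached the minimum of 10 reads in at least 1 library. Aldh1l2 did not.

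The 4 libraries were stranded mRNA-seq of whole ICR embryos, named E7.5 WT and E8.5 WT for the wild-type samples of those embryonic days (1 library each) and KO1 and KO2 for the 2 Ddx6 -/- samples collected at E8.5. Ddx6 encodes an RNA helicase of mRNA decay and translational repression. The mutant line had lost a floxed exon by crossing with a CAG-Cre deletion line, and the KO embryos came from heterozygous parents. KO1 pooled an embryo from before head-fold formation with an embryo that had head folds, and the embryos of KO2 had all been collected without head folds. The number of embryos in the wild-type libraries is not given in the sources used here.

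KO1 was the shallowest library with 8198402 counts, and E8.5 WT the deepest with 12562640. Ddx6 had 2943 reads at E7.5 and 5715 at E8.5 in wild type, then 706 for KO1 and 929 for KO2, so the targeted transcript was low in both libraries labelled KO. KO2 stood apart. It held 17340 Xist reads and 0 reads of 4 Y-linked genes, against at most 46 and at least 1100 in the other libraries, and the 7 trophoblast markers summed to 791 CPM against 182 to 424 CPM elsewhere, where CPM is the count scaled to a common normalized library total. Its 7 epiblast markers were at 3225 CPM beside 773 in KO1, and its 4 paraxial mesoderm markers at 15.9 CPM beside 223. Values are therefore given for each KO library. Each wild-type stage had 1 library, so a difference from wild type could be compared only with the spread between the KO libraries, and no p-value is given for the 10 genes.

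Threonine dehydrogenase and its partner Gcat split threonine in mitochondria into glycine and acetyl-CoA, and the glycine cleavage system then releases a carbon unit from glycine onto tetrahydrofolate. Serine hydroxymethyltransferases make the same transfer from serine. Parallel sets of enzymes in the cytosol and in mitochondria interconvert these folate forms, which feed purine, thymidylate and methionine synthesis. Mouse pluripotent cells are known for high Tdh and for dependence on threonine, and the glycine cleavage system and folate supply are known for their part in neural tube closure.

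Tdh, the first enzyme of threonine breakdown (chromosome 14, 63492347 to 63509092, minus strand, GRCm38), was the lowest of the 9 measured genes relative to E8.5 WT. It had 1686 reads at E7.5 and 1169 at E8.5 in wild type, then 358 for KO1 and 370 for KO2. In CPM these were 142, 95.1, 42.6 and 30.4. Both KO libraries lay below both wild-type libraries. The level was 2.23-fold lower in KO1 than in E8.5 WT and 3.13-fold lower in KO2, and the log2 changes averaged -1.40 ± 0.34 (SD, n = 2). Exact 95% intervals of the log2 change, which cover counting error only, were -1.33 to -0.99 in KO1 and -1.82 to -1.48 in KO2. Whole embryos were measured, so fewer cells of a kind and less RNA per cell cannot be told apart.

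Gcat, which completes the reaction that Tdh starts (chromosome 15, 79030874 to 79038353), did not follow it. Its reads were 2147 at E7.5 and 834 at E8.5 in wild type, then 508 for KO1 and 932 for KO2, or 181, 67.9, 60.5 and 76.5 CPM. Only E7.5 WT was high, and the 3 libraries of embryonic day 8.5 lay close together. Against E8.5 WT, KO1 differed by -0.17 on the log2 scale and KO2 by 0.17, with a mean of 0.00 ± 0.24 (SD, n = 2). The annotation also holds a second Gcat entry, a read-through form that runs into the exons of Galr3, which itself had 8 to 22 reads.

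Gldc, the glycine-binding decarboxylase of the glycine cleavage system (chromosome 19, 30098447 to 30175429), had the most reads of the set in each library. They numbered 6452 at E7.5 and 3935 at E8.5 in wild type, then 2229 for KO1 and 3827 for KO2, which was 542, 320, 265 and 314 CPM. E7.5 WT was again the high library. Against E8.5 WT the log2 changes were -0.27 and -0.03, and the sign of the value in KO2 turned with plain CPM (0.02). Gldc took between 26.7% and 30.1% of the reads of the 10 genes.

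Among the cytosolic enzymes, Aldh1l1 stood apart from the rest. It encodes the dehydrogenase that oxidizes formyl-tetrahydrofolate to carbon dioxide (chromosome 6, 90486427 to 90600203), and it had 20 reads at E7.5 and 4 at E8.5 in wild type, then 36 for KO1 and 99 for KO2. These were 1.68, 0.326, 4.29 and 8.12 CPM. Both KO libraries exceeded both wild-type libraries, on few reads. KO1 exceeded E8.5 WT 13.2-fold and KO2 exceeded it 25.0-fold, with intervals of the log2 ratio from 2.24 to 5.67 and from 3.24 to 6.55. With a prior count of 2, which pulls low counts together, the mean log2 change was 3.59 ± 0.63 (SD, n = 2). Even in KO2 the gene remained scarce, with 28.7-fold fewer reads per length than Mthfd1.

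Shmt1, the cytosolic serine hydroxymethyltransferase, and Mthfd1, which interconverts 3 cytosolic folate forms, were lower in KO1 and in KO2 alike than at E8.5 in wild type. Shmt1 had 2112 reads at E7.5 and 1238 at E8.5 in wild type, then 571 for KO1 and 1027 for KO2 (178, 101, 68.0 and 84.3 CPM). Mthfd1 was read 4115 and 2782 times in wild type, 1203 times in KO1 and 2206 times in KO2 (346, 226, 143 and 181 CPM). For both genes KO1 was the lowest library and KO2 lay between KO1 and E8.5 WT. The mean log2 changes against E8.5 WT were -0.41 ± 0.22 for Shmt1 and -0.49 ± 0.24 for Mthfd1 (SD, n = 2), short of the 2-fold limit used for calls.

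Of the mitochondrial enzymes, Shmt2 and Mthfd1l lay near E8.5 WT in KO2. Shmt2, the mitochondrial serine hydroxymethyltransferase, had 3032, 1989, 1155 and 2025 reads, listed as wild type by stage and then KO1 before KO2 (255, 162, 138 and 166 CPM), and its log2 changes against E8.5 WT were -0.23 and 0.04. Mthfd1l, the mitochondrial formate-producing synthetase, had 1953, 1973, 961 and 1790 reads (164, 161, 114 and 147 CPM), with log2 changes of -0.49 and -0.13. For both, KO1 was low and KO2 was near E8.5 WT.

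Mthfd2, the mitochondrial dehydrogenase and cyclohydrolase, behaved alike in the KO libraries. It had 803, 821, 373 and 560 reads, or 67.5, 66.8, 44.4 and 46.0 CPM, so the wild-type stages lay together and the KO libraries lay together below them. Its log2 changes from E8.5 WT averaged -0.56 ± 0.03 (SD, n = 2), and the intervals were -0.77 to -0.41 in KO1 and -0.70 to -0.38 in KO2. Aldh1l2, the mitochondrial counterpart of Aldh1l1, had 2, 3, 4 and 8 reads, too few for a change to be given.

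**Figure D1:**
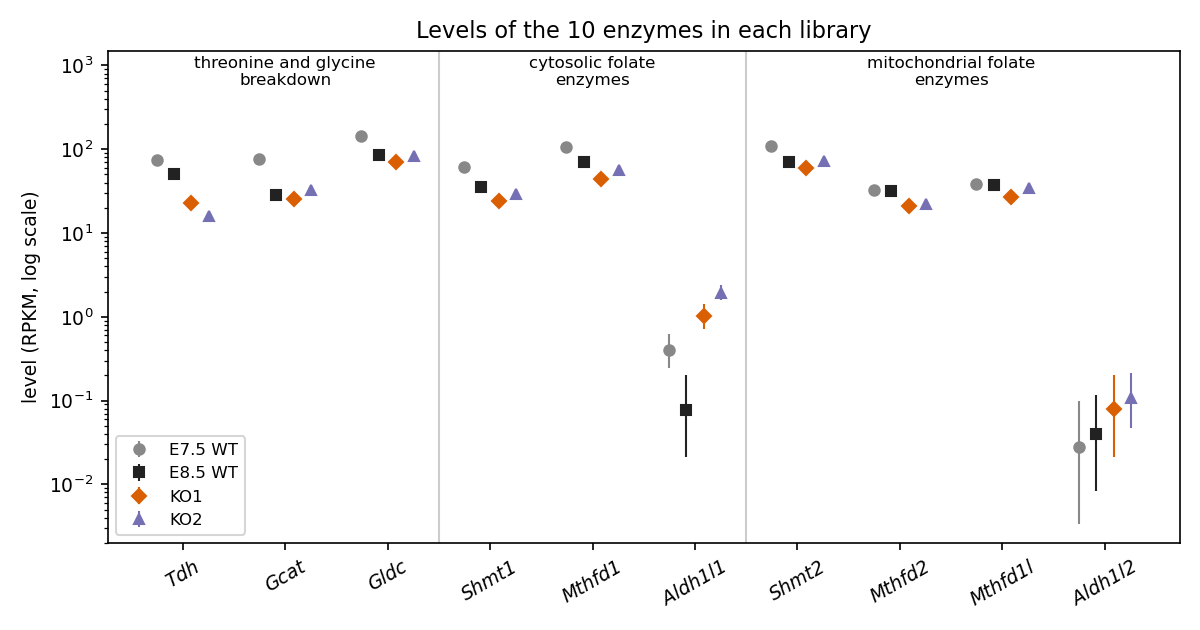
Level of each of the 10 enzymes in each library as RPKM (CPM per kilobase of exon, log axis), with exact 95% counting intervals as bars. Aldh1l1 and Aldh1l2 lie far below the other 8 genes in all 4 libraries, Aldh1l1 is highest in KO2, and Tdh is lowest in KO2.

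Levels of different genes were compared per length of exon, as RPKM. In E8.5 WT, Gldc led with 85.0 RPKM, followed by Shmt2 with 70.2 and Mthfd1 with 69.8, whose counting intervals overlapped. Tdh came next with 50.6 RPKM. Mthfd1l, Shmt1, Mthfd2 and Gcat followed at 37.6, 35.3, 32.0 and 28.6 RPKM, with intervals that overlapped from each gene to the next. Aldh1l1 and Aldh1l2 closed the order at 0.0780 and 0.0401 RPKM and could not be told apart. Gldc, Shmt2 and Mthfd1 kept these ranks in all 4 libraries. Tdh, by contrast, was the fifth in E7.5 WT with 75.4 RPKM, where its interval overlapped that of Gcat, and the eighth in KO2 with 16.1 RPKM, below Mthfd2 and beyond counting error. In KO1 it was the seventh with 22.7 RPKM, and its interval overlapped those of its neighbours Shmt1 and Mthfd2.

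The difference between the wild-type stages is not named in the rule, but the low level of Aldh1l1 in E8.5 WT and the level of Tdh there entered their choice. All 9 measured genes had lower values at the later stage, where 50.9% of all genes kept did, and the intervals of 7 excluded 0. Only Gcat (log2 change -1.41) and Aldh1l1 (-1.88) passed the 2-fold limit, which 7.82% of all 14393 genes passed downward. No gene of the set passed it upward, as 12.2% of all genes did. The changes of the others were -0.82 for Shmt1, -0.76 for Gldc, -0.66 for Shmt2, -0.61 for Mthfd1 and -0.58 for Tdh. Mthfd2 and Mthfd1l, with -0.02 and -0.03, had intervals that included 0. Reads of the 10 genes together made up 0.185% of the E7.5 WT library, 0.117% of the E8.5 WT library, 0.0902% of KO1 and 0.107% of KO2.

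Against E8.5 WT, calls required a log2 change above 1 or below -1 in both KO libraries. Of the 9 measured genes, Aldh1l1 was called higher and Tdh lower, where 3.44% and 1.79% of all genes were called in these directions. The rule rests on these same values. The gene nearest to the limit from the other side was Mthfd1 in KO1, with -0.66, and Tdh passed it with -1.16 in KO1. Of the 9 genes, 6 had negative changes in both KO libraries (5 with plain CPM, where Gldc turned in KO2), beside 37.6% of all genes, and Gcat and Shmt2 had opposite signs. The median change was -0.49 in KO1 and -0.13 in KO2, beside -0.01 and 0.00 over all genes.

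**Figure D2:**
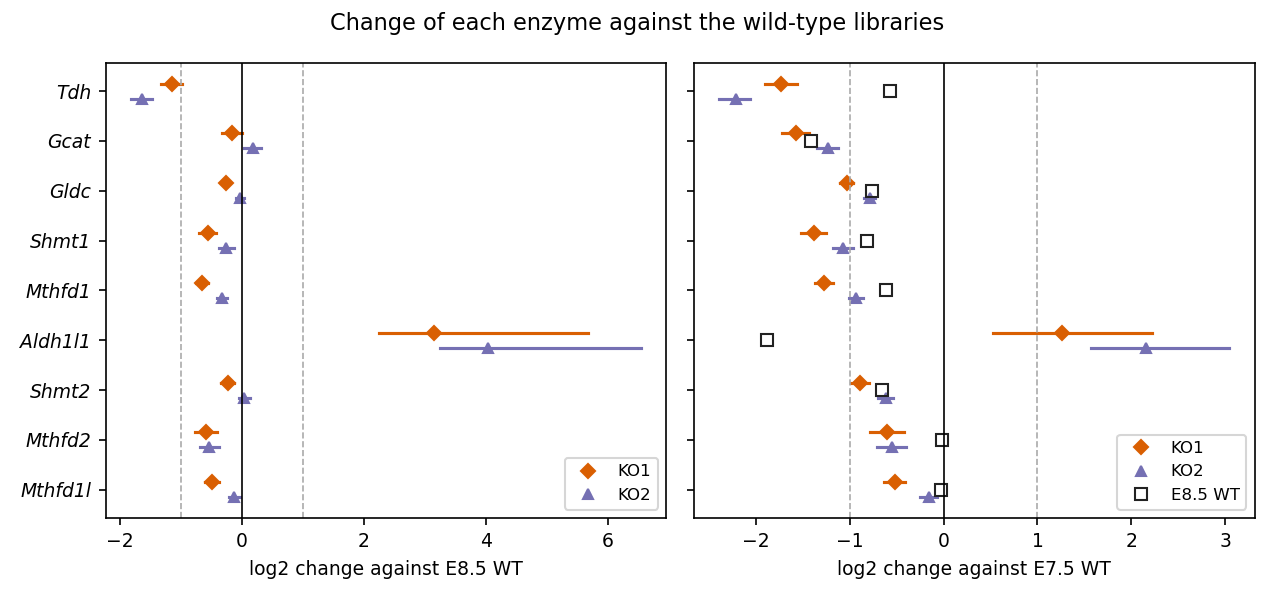
Log2 change of the 9 measured enzymes in KO1 and KO2 against E8.5 WT (left) and against E7.5 WT (right), with exact 95% counting intervals as lines, dashed lines at the 2-fold limit, and open squares for E8.5 WT against E7.5 WT. Tdh lies left of -1 and Aldh1l1 right of 1 in both panels, and Mthfd2 is lower in both KO libraries than at either wild-type stage.

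Against E7.5 WT, which shares the KO libraries with the comparison above, 8 of the 9 genes were lower in both KO libraries, beside 38.2% of all genes, and all 8 had intervals below 0. The low Tdh and high Aldh1l1 of the KO libraries chose these genes, so their calls here are a description too. Tdh, Gcat and Shmt1 were called lower, where 2.7% of all genes were. The Tdh changes were -1.73 in KO1 and -2.22 in KO2, those of Gcat -1.57 and -1.24, and those of Shmt1 -1.38 and -1.07. Mthfd1 (-1.27 and -0.93) and Gldc (-1.03 and -0.79) passed the limit in KO1 alone. Aldh1l1 was called higher, with 1.26 and 2.16, where 6.91% of all genes were. For Gcat the E8.5 WT library lay between the KO libraries, whereas for Tdh it lay between them and E7.5 WT.

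For Tdh, Gldc, Shmt1, Mthfd1, Mthfd2 and Mthfd1l both KO libraries lay below both wild-type libraries, at any size of difference. That is 6 of 9 genes beside 17.6% of all genes, though with plain CPM Gldc in KO2 was above E8.5 WT. Aldh1l1 was above both wild-type libraries in both KO libraries, as were 18.4% of all genes. The places of Tdh and Aldh1l1 here follow from the rule that chose them. For Gldc and Mthfd1l the gap was small, since KO2 differed from E8.5 WT by -0.03 and -0.13 on the log2 scale. The interval of Gldc in KO2 included 0.

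The KO libraries differed from each other in a common direction. Of the 9 genes, 8 were higher in KO2 than in KO1, beside 53.2% of all genes, and Tdh was lower (-0.49). No gene of the set passed the 2-fold limit between them, which 5.99% of all genes passed upward and 4.89% downward. The differences ranged from 0.05 for Mthfd2 to 0.90 for Aldh1l1, and the interval of Mthfd2 alone included 0.

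Ratios within a library do not depend on the scaling between libraries. Tdh made up 44.0% of the joint reads of Tdh and Gcat at E7.5 (95% exact interval 42.4% to 45.6%) and 58.4% at E8.5 (56.2% to 60.5%) in wild type. It made up 41.3% for KO1 (38.0% to 44.7%) and 28.4% for KO2 (26.0% to 31.0%). E8.5 WT thus had the highest share and KO2 the lowest, and the KO libraries differed from each other beyond counting error. The low Tdh of the KO libraries chose the set, so their lower share than in E8.5 WT is a description too. Shmt1 made up 41.1% of the joint reads of Shmt1 and Shmt2 at E7.5 and 38.4% at E8.5 in wild type, but 33.1% for KO1 and 33.6% for KO2. The intervals of the KO libraries, 30.9% to 35.4% and 32.0% to 35.4%, lay below that of E8.5 WT, 36.7% to 40.1%. The share of the cytosolic enzyme was therefore lower in both KO libraries than at either wild-type stage, with the KO libraries alike.

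For the formate enzymes, Mthfd1 made up 67.8% of the joint reads of Mthfd1 and Mthfd1l at E7.5 and 58.5% at E8.5 in wild type, then 55.6% for KO1 and 55.2% for KO2. The largest step lay between the wild-type stages, and the interval of KO1 (53.5% to 57.7%) overlapped that of E8.5 WT (57.1% to 59.9%). Gldc relative to Shmt2, both mitochondrial, varied little, at 68.0%, 66.4%, 65.9% and 65.4% of their joint reads. Gldc, Shmt2 and Amt, which encodes the aminomethyltransferase of glycine cleavage (880, 664, 444 and 786 reads), had log2 changes between -0.27 and 0.26 against E8.5 WT.

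**Figure D3:**
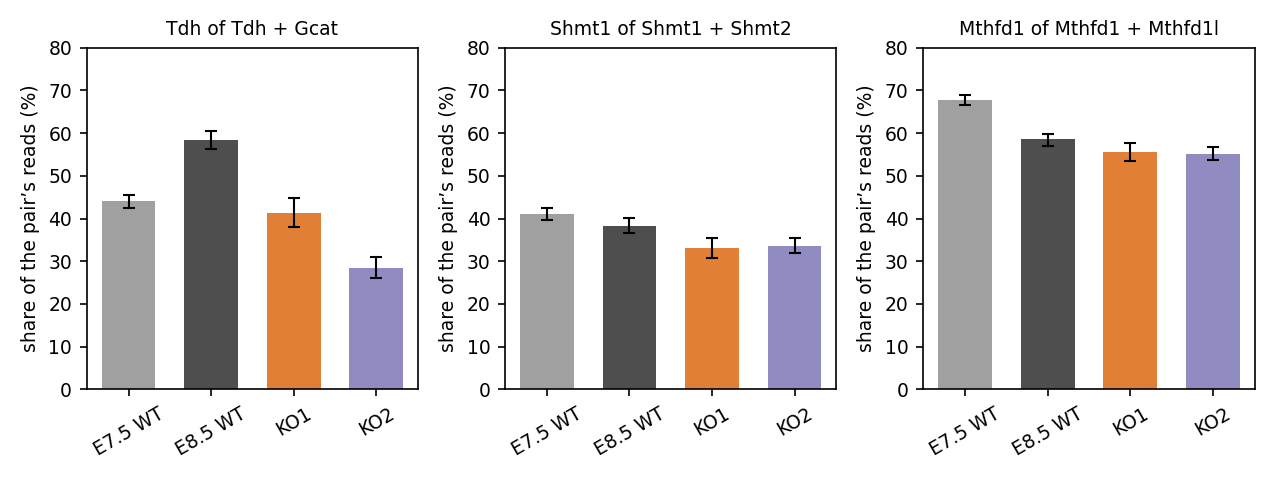
Share of reads of the first gene of 3 enzyme pairs in each library (bars from 0, percent), with exact 95% binomial intervals. The Tdh share is highest in E8.5 WT and lowest in KO2, the Shmt1 share is lower in both KO libraries than in both wild-type libraries, and the Mthfd1 share is highest in E7.5 WT.

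Other genes of the pathway were taken from lists of 47 genes, of which 43 reached the count minimum. None was called in either direction in both KO libraries against E8.5 WT. The edgeR quasi-likelihood test of KO against E8.5 WT passed 0 of the 43 genes at an adjusted p under 0.05, as it did 0% of all 14393 genes, and so did the test against both wild-type libraries (0%). The spread in the latter test also holds the difference between the wild-type stages. At an unadjusted p under 0.05 each test gave 1 of the 43 genes, Psat1, and DESeq2 called 0 of them. Over all genes the unadjusted counts were 1052 and 565, and DESeq2 called 31 and 32. Against E8.5 WT the 43 genes had a median of -0.16 for KO1 and of -0.08 for KO2. Of these genes, 22 had negative values in both KO libraries, beside 37.6% of all genes, 6 had positive values, beside 36.3%, and 15 had opposite signs.

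Psat1, an aminotransferase of serine synthesis, had 4127, 3387, 1680 and 2293 reads, in the order used for Shmt2. Its log2 changes of -0.46 and -0.55 lay near those of Mthfd2. The enzymes before and after it in serine synthesis had smaller values. Phgdh, with 3326, 2002, 1234 and 1938 reads, differed from E8.5 WT by -0.15 and -0.04, and Psph, with 659, 515, 359 and 448 reads, by 0.03 and -0.19. Sfxn1, a mitochondrial serine transporter, had values of -0.15 and -0.08.

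In the glycine cleavage system, Gcsh, the carrier protein, had 2722, 1902, 1080 and 1568 reads, with log2 changes against E8.5 WT of -0.27 in both KO libraries. Dld, the dehydrogenase shared with other mitochondrial complexes, had -0.10 and 0.06. Mthfd2l, the mitochondrial relative of Mthfd2, moved in the other direction between the wild-type stages, with 67 reads at E7.5 and 208 at E8.5 (log2 change 1.56). It had 114 and 145 reads in KO1 and KO2, or -0.31 and -0.50 against E8.5 WT. It was called higher than E7.5 WT, with 1.24 and 1.06, the only one of the 43 genes, where 6.91% of all genes were.

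Among genes of folate supply and use, Folr1, a folate receptor, had 1146, 627, 317 and 539 reads, and was 2-fold lower or more in both KO libraries than in E7.5 WT (-1.35 and -1.12). Fpgs, which retains folate in cells by adding glutamates, had 1160, 580, 363 and 543 reads (-1.17 and -1.13). They were the 2 of 43 genes called lower than E7.5 WT, where 2.7% of all genes were. Against E8.5 WT their values were -0.43 and -0.21, and -0.13 and -0.08. The mitochondrial folate carrier Slc25a32 had -0.29 and -0.15, and thymidylate synthase Tyms had 0.03 and -0.21. For the 6 purine synthesis genes the median was -0.35 (KO1) and -0.21 (KO2).

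**Figure D4:**
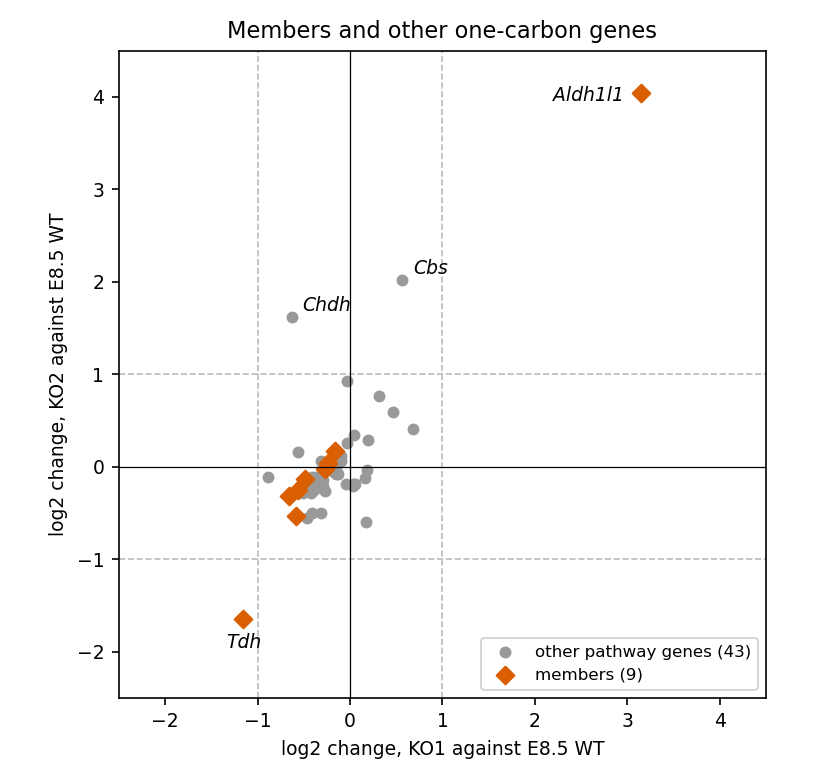
Log2 change against E8.5 WT in KO1 (horizontal) and KO2 (vertical) for the 9 measured members and the 43 other pathway genes, with dashed lines at the 2-fold limit. Tdh alone lies in the lower left and Aldh1l1 alone in the upper right beyond both limits, and Cbs and Chdh pass it in KO2 only. The axes share the E8.5 WT library.

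Cbs and Chdh, named after their values were seen, passed the limit in KO2 without KO1. Cbs, which starts the route from homocysteine to cysteine, had 173 reads at E7.5 and 22 at E8.5 in wild type, then 23 for KO1 and 95 for KO2. Chdh, the choline dehydrogenase, had 61, 51, 22 and 160 reads.

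Markers of the tissues that whole embryos hold were set beside Tdh and Aldh1l1. The 10 visceral endoderm markers summed to 7405 CPM at E7.5 and 7408 CPM at E8.5 in wild type, against 4492 CPM for KO1 and 4334 CPM for KO2, and none was at 0 in any library. Of the 10, 8 had both KO libraries below both wild-type libraries, as Tdh had, beside 17.6% of all genes. Among the 8, Hnf4a differed from E8.5 WT by only -0.07 and -0.03 on the log2 scale, with intervals that included 0. Spink1 was above E8.5 WT in both KO libraries (0.44 and 0.46), and Amn was above it in KO2 (0.19). For every 1000 reads of these markers Tdh had 19.14 reads at E7.5 and 12.8 at E8.5 in wild type, and it had 9.49 in KO1 and 7.01 in KO2. The ratio thus differed between the wild-type stages as well. The flat wild-type sum hid opposite moves. Apob rose from 1733 CPM at E7.5 to 3110 CPM at E8.5, and Afp from 337 to 354 CPM. The other markers fell, as Tdh did, among them Cubn from 2438 to 2187 CPM and Apoa1 from 1021 to 548 CPM. The wild-type ratios therefore rest in part on Apob.

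Other lists were also low in the KO libraries. The 5 primitive erythroid markers summed to 20.2 and 241 CPM in wild type by stage, and to 1.79 CPM in KO1 and 1.56 CPM in KO2, with Hbb-y at 0 in all but E8.5 WT and Hba-x at 0 in E7.5 WT and KO2. The 5 cardiac muscle markers summed to 23.5, 204, 57.8 and 51.9 CPM, with none at 0. All 5 genes of either list were below E8.5 WT in both KO libraries. Unlike Tdh, both sums were lower at E7.5 than at E8.5 in wild type. The erythroid sum at E8.5 rested on Hba-x (99.4 CPM) and Hbb-bh1 (128.5 CPM). Gata1 alone on that list went the other way, with 205 reads at E7.5 and 65 at E8.5, then 5 for KO1 and 12 for KO2.

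The 4 paraxial mesoderm markers summed to 39.2, 200, 223 and 15.9 CPM, low in KO2 and not in KO1. Aldh1a2 gave 140 CPM of this sum in E8.5 WT and 165 in KO1. Of the 4, 2 were below E8.5 WT in both KO libraries, among them Tcf15 (10.1, 4.41 and 1.56 CPM in E8.5 WT, KO1 and KO2). The 4 endothelial markers summed to 105, 305, 269 and 245 CPM, nearer to E8.5 WT. In KO2, Cdh5 was above E8.5 WT (98.6 against 56.1 CPM) and Pecam1 near it (24.8 against 24.6). Kdr (103 against 184) and Tal1 (18.5 against 40.4) were below it there. The 7 epiblast and pluripotency markers summed to 2132, 581, 773 and 3225 CPM, with none at 0, and Dnmt3b gave 71.8% to 77.4% of their reads. The part of these tissues in the Tdh values was not tested.

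The 7 trophoblast giant cell and ectoplacental markers summed to 249, 182, 424 and 791 CPM, which is the order of the libraries for Aldh1l1. That order rested on Hand1, which embryonic mesoderm and heart also express and which had 2570, 2229, 3544 and 4028 reads. Without Hand1, left out after the values were seen, the other 6 markers summed to 32.7, 1.06, 2.26 and 460 CPM, so E7.5 WT was above KO1 and the order differed from that of Aldh1l1. Prl3b1 and Tpbpa were at 0 in all 4 libraries, Prl2c2 in E8.5 WT and Psg17 in KO2, while Prl3d1 and Prl2c2 had 4156 and 1400 reads in KO2 and at most 27 elsewhere.

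The 7 extraembryonic ectoderm markers, with none at 0, summed to 263, 150, 109 and 80.3 CPM, in the library order of Tdh. Their members diverged. In E8.5 WT the sum rested mostly on Cdx2 (108 CPM) and Sox21 (34.8 CPM). Both were lower in KO1 and KO2, with 77.8 and 12.3 CPM for Cdx2 and 19.9 and 7.47 CPM for Sox21. Elf5 and Rhox9 had only 3 reads each in E8.5 WT. The lower KO sums thus say little about the rest of the list. Between the wild-type stages Elf5 fell from 795 to 3 reads, Esrrb from 532 to 37 and Tex19.1 from 532 to 41. Of the 7, 3 were below E8.5 WT in both KO libraries and 2 were above it. Cdx2 went from 1326 reads at E8.5 in wild type to 150 for KO2, whereas Rhox6 went from 9 to 376. The 5 maternal decidua markers summed to 130, 11.9, 20.8 and 133 CPM, with Prl3c1 at 0 in KO1. Prl8a2 gave most of the sum in E7.5 WT and KO2 (111, 2.12, 7.62 and 118 CPM in the 4 libraries). Dcn (1.09, 1.87, 2.26 and 1.64 CPM) and Lum (0.0841, 2.60, 4.17 and 0.657 CPM) did not follow it. Prl3c1 was highest in E7.5 WT (11.4 CPM) and Pgr in KO2 (10.8 CPM).

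The 8 neural plate and radial glia markers, a cell class in which Aldh1l1 is known at later stages, summed to 93.8, 155, 146 and 159 CPM, and this sum hid opposite directions. Of the 8, 5 were below E8.5 WT in both KO libraries, among them Sox1 (43.4, 21.2 and 3.45 CPM in E8.5 WT, KO1 and KO2) and Pax6 (14.7, 3.69 and 1.15 CPM). The 5 also held Gfap, with 2, 1 and 1 reads and below the count minimum, and Aldoc and Hes5, whose KO1 intervals included 0. Nes (63.1, 82.2 and 112 CPM) and Slc1a3 (15.5, 17.7 and 31.5 CPM) were above E8.5 WT, though the KO1 interval of Slc1a3 included 0. The part of these tissues in the Aldh1l1 values was not tested.

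**Figure D5:**
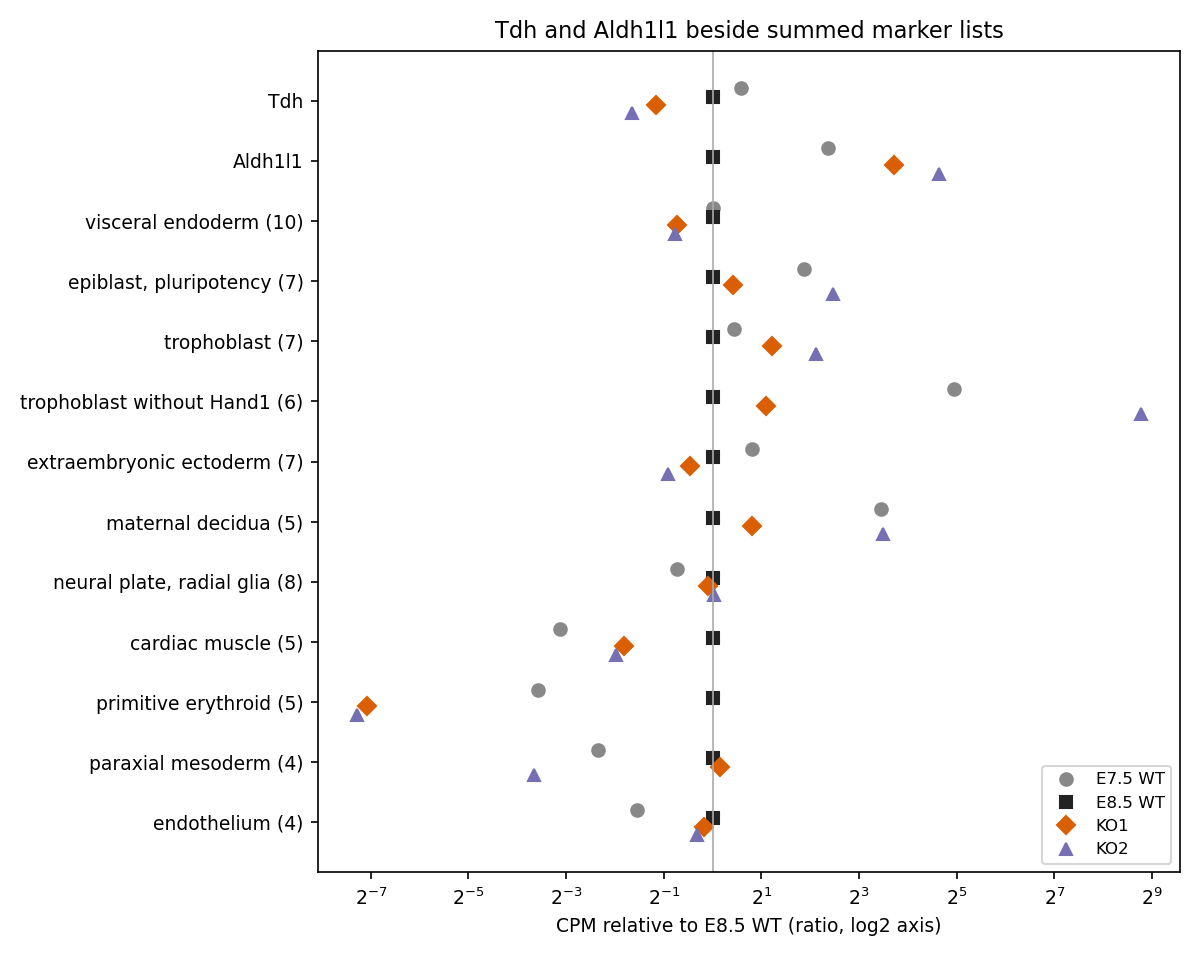
CPM relative to E8.5 WT (ratio on a log2 axis) of Tdh, of Aldh1l1 and of summed marker lists (number of genes in brackets), 1 point per library. Tdh and the visceral endoderm, extraembryonic ectoderm, cardiac, erythroid and, less so, endothelial markers are below E8.5 WT in both KO libraries. The trophoblast markers follow the library order of Aldh1l1 with Hand1 but not without it.

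The genes whose pattern over the 4 libraries was most like that of Tdh were sought by the distance between mean-centred log2 levels, among 10728 genes with at least 100 reads in a library. The 5 nearest were Serpinf2, Rbp4, Fgb, Aqp3 and Car7, at distances from 0.13 to 0.43. Serpinf2 (428, 307, 87 and 101 reads), Rbp4 (5817, 4720, 1417 and 1372) and Fgb (410, 323, 101 and 91) encode secreted plasma proteins, and Rbp4 is also on the visceral endoderm list. Aqp3 (637, 609, 190 and 185 reads) and Car7 (2458, 2343, 546 and 501) do not encode plasma proteins. For Aldh1l1 the nearest were Bace2, Alox15, Trh, Parp10 and Il17rc, at larger distances of 0.68 to 0.94. Bace2 had 41, 11, 43 and 144 reads and Alox15 had 267, 76, 661 and 892. These are descriptions over 4 libraries that share their depth and normalization.

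Since DDX6 acts in silencing by microRNAs, the 3′ untranslated regions of the 10 genes were searched for matches to the seeds (bases 2 to 8) of miRNA families known from early embryos and stem cells. The mature sequences below are from RefSeq (GRCm38.p6), with the seed in capitals, and are shown because the first pair share a seed and miR-17 has it shifted by a base.
mmu-miR-294-3p: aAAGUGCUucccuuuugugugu
mmu-miR-302b-3p: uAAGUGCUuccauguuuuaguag
mmu-miR-17-5p: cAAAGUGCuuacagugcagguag
mmu-miR-92a-3p: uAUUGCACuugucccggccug
mmu-let-7a-5p: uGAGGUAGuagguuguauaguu

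The site of the first pair, AGCACTT, was in 15.5% of the 13274 annotated 3′ untranslated regions of genes kept, and in 0 of the 10. The sites GCACTTT of miR-17, GTGCAAT of miR-92a and CTACCTC of let-7 were in 13.4%, 6.85% and 9.57% of all and likewise in 0 of the 10. The regions of the 10 genes ran from 227 bases in Mthfd1 and 360 in Tdh to 1261 in Aldh1l1 and 3129 in Aldh1l2, beside a median of 988. Absence says only that these letters were not in the annotated regions.

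Promoters of 8 of the 10 genes were in the RefSeq table, from 250 bases before to 50 after the annotated start. Tdh and Aldh1l2 had no entry. On either strand, CCAAT was in 5 of the 8 (Aldh1l1, Gldc, Mthfd1, Mthfd2 and Shmt1) beside 37.4% of all 32851 promoters, and GGGCGG was in 6 beside 35.7%. CACGTG was in Gcat alone (7.15% of all), and TATAAA in 0 of the 8 (13.6% of all). Of the measured genes, Aldh1l1 alone was above E8.5 WT in both KO libraries. The promoters of Aldh1l1 and of Mthfd1, its abundant cytosolic neighbour, are shown with both of the first motifs, on either strand, in capitals. The GC content was 60.0% for Aldh1l1 and 59.0% for Mthfd1, beside a median of 52.7%. Both promoters held these motifs. The Aldh1l1 window lies at the RefSeq start, inside the GENCODE gene span given above. The GENCODE start at 90486427 belongs to a transcript with no coding sequence, and the first protein-coding transcript starts at 90550789.
Aldh1l1, chr6:90550543-90550842, plus strand: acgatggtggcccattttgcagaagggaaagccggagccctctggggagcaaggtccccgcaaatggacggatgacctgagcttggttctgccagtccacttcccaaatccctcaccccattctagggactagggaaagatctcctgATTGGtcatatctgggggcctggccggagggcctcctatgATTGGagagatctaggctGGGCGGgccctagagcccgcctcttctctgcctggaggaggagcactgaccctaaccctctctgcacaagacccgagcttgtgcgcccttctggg
Mthfd1, chr12:76254982-76255281, plus strand: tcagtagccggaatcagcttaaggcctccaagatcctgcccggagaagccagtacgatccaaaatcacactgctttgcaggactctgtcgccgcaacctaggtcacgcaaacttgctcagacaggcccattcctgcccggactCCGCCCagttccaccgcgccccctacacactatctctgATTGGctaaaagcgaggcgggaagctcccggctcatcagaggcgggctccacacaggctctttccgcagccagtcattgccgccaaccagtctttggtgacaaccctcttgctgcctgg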

How the data were processed

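The authors deposited raw read counts per gene, without normalization. Per the methods and the submitters' processing notes, reads were trimmed with cutadapt 2.8, aligned to mm10 with HISAT2 2.1.0 and counted strand-specifically over exons with featureCounts 2.0.0, so reads of near-identical copies may be lost. Normalization factors were the trimmed mean of M-values in edgeR 4.0.16 (R 4.3.3). Genes with at least 10 counts in 1 library were kept. Log2 changes used log2 CPM with a prior count of 2, and calls the study's limit of 1 in both KO libraries. Intervals are exact Clopper-Pearson intervals of the reads of a pair of libraries and cover counting error only. Exon lengths and positions are from GENCODE M21 (GRCm38, the assembly of mm10). RPKM divides CPM by exon length.

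edgeR quasi-likelihood tests, two-sided with Benjamini-Hochberg adjustment over all genes kept, and DESeq2 1.42.0 were fitted to the whole table. The code was tested on simulated data. Members and lists were chosen with earlier results of these data known. Named genes are the 10 members, Ddx6, 12 pathway genes fixed by name, pathway genes called in both KO libraries, and the 5 nearest patterns. Values of some single genes that meet this rule are not reported here. Fpgs, Cbs and Chdh are outside this rule and were named after their values were seen, as were Galr3 and single genes of the marker lists. Nothing in the labels says that the KO libraries were separate litters. With 1 library for each wild-type stage, p-values against E8.5 WT measure only the spread between the KO libraries. In the test against both wild-type libraries, the spread also holds the difference between the wild-type stages, so its lack of calls says little. Alternatives were other scalings, prior counts, filters and limits, and leaving out each KO library.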

Additional observations from a re-analysis of the deposited data

How the results depend on the processing

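Of 216 member changes recomputed under alternatives, 214 stayed within the spread between the KO libraries or, for comparisons of 2 single libraries, within counting error, and none of the called ones turned sign. The others were the changes of Mthfd2 with plain CPM, -0.50 against E8.5 WT and -0.53 against E7.5 WT. A mean of 2 libraries cannot shift beyond their SD when 1 is dropped, so those settings say little. The median of all genes for KO2 against E7.5 WT was 0.07, and 0.12 with plain CPM.

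Of 84 counts, 71 stayed within 1.5 times. With a limit of 0.5, 2 members (Tdh and Mthfd2) passed downward against E8.5 WT and 7 against E7.5 WT, and 1 pathway gene (Cbs) passed upward against E8.5 WT. With a limit of 2, 0 members were lower than in E8.5 WT or E7.5 WT, and 0 were higher than in E7.5 WT. Without a KO library, members lower than in E7.5 WT numbered 3 to 5 (5 without KO2), and higher pathway genes against E8.5 WT 0 to 2 (2 without KO1). Over all genes, edgeR called 8 against E8.5 WT without a filter, and DESeq2 called 31 against E8.5 WT and 32 against both wild-type libraries. With both KO libraries edgeR called 0, with 1052 and 565 genes at an unadjusted p under 0.05. Without KO1 it called 51 against both wild-type libraries and without KO2 1, where the lone KO library is assumed to vary like the wild-type pair. Depth limits Aldh1l1, with 4 reads in E8.5 WT, and Aldh1l2. No paired analysis was possible because the wild-type libraries carry no replicate numbers and each stage has a single library.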
